A study of Mus musculus with 6 samples.

Results

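This account covers 2134 open chromatin regions of mouse liver that lie in the first intron of a gene, with the middle of the region at most 3000 bases from the start of that gene. They are 9.52% of the 22412 peaks in the authors' table and belong to 2040 genes. A peak was taken where the deposited annotation places it in intron 1, where that annotation and the nearest start name the same gene, and where the distance to the start is 3000 bases or less. No measured value entered that rule, though it was chosen with earlier results of these data known.

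The libraries are ATAC-seq, in which a transposase enters nuclei and cuts and tags open DNA. Livers of mice given an adenovirus for EGFP, a green fluorescent protein, served as the control (n = 3), and livers with adenoviral overexpression of Dyrk1b formed the other group (n = 3). Dyrk1b is a kinase that phosphorylates its own activation loop on tyrosine and other proteins on serine and threonine. All 6 livers thus carried an adenovirus, and the comparison asks how accessibility differs with the kinase. The sources used here do not give the strain, sex and age of the mice, the virus dose or the time after infection. Since no label calls the livers of a group separate animals, each p-value measures only how far these samples spread, part of which may be technical.

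A gene's first intron begins just behind its first exon. Around an active start site nucleosomes are displaced, and the open stretch often runs from the promoter across the first exon into the first intron. First introns are also known to hold enhancers and alternative start sites, and transcription factors bind there as they do upstream of the start. A peak in this place can therefore be the downstream shoulder of the start site or a separate element, and its position alone does not always separate the cases.

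Some peaks reached the start and others lay behind it, and a peak whose edge falls close behind the start can still belong to the shoulder. The middles of the peaks lay 30 to 2997 bases from the start, with quartiles of 320.2, 637.5 and 1210 bases, and the next first intron peak outside the limit lay at 3014 bases. Of the 2134 peaks, 579 (27.1%) reached back to the start and 1555 lay wholly downstream of it. Peaks were 202 to 1820 bases wide, with a median of 503. The authors' table also places a promoter peak at the genes of 283 members, a 5' UTR peak at those of 177 and a first intron peak beyond 3 kb at those of 356. Neither a promoter nor a 5' UTR peak was listed for the genes of 1683 members. There were 90 genes with 2 or more such peaks and 4 with 3. The genes had a median of 6 introns and at most 78, and 263 members lay in the intron of a transcript with a single intron. No symbol was given for 324 members.

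The genes had promoters rich in CpG. RefSeq windows of 300 bases (250 before to 50 after a start, build GRCm38.p6) matched 1403 of the 1731 genes with a symbol (81.0%) and gave 1871 windows. Their median GC content was 60.7% against 52.7% over all 32851 windows in the table, and they held a median of 20 CpG dinucleotides against 7. The ratio of observed to expected CpG was 0.74 at the median against 0.38. A GC box (GGGCGG, either strand) stood in 62.7% of these windows and in 35.7% of all windows. The ETS core (CCGGAA, either strand) was in 24.1% against 14.9%, and the CRE core (TGACG, either strand) in 29.9% against 20.8%. An E-box (CACGTG, its own reverse complement) was in 10.3% against 7.15%. The CCAAT box (CCAAT, either strand) was about as common, at 36.4% against 37.4%, and the TATA box (TATAAA, either strand) less so, at 7.75% against 13.6%. None of these motifs lies within another, though neighbouring matches can share letters, and a match does not show binding. Genes of peaks upstream of the start, within 1 kb, matched in 81.0% and gave a similar picture, with 62.7% GC, 23 CpG and a GC box in 69.6% of windows. Genes with only first intron peaks beyond 3 kb, among these classes, matched in 77.3%. Their windows had 61.0% GC, 18 CpG, a CpG ratio of 0.65 and a GC box in 56.0%. High GC and CpG were thus not particular to the members. The ETS core stood in 14.9% of those windows and the CRE core in 23.4%.

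The following windows belong to genes named below whose lower first intron peak reached back over the start. Only genes with 1 window in the table were taken. The windows were matched by gene symbol, and whether they share the start site of the peak was not checked. They are written 5′ to 3′ on the strand of the gene, with matches to the motifs above in capitals. Positions are those of GRCm38.p6 and cannot be set beside the peak coordinates given below, which are as deposited and do not match the build listed by the submitters. The Gm38431 window lies on chromosome 9 (chr9:21091959-21092258, minus strand), that of Gbe1 on chromosome 16 (chr16:70313699-70313998, plus strand) and that of Taf8 on chromosome 17 (chr17:47502242-47502541, minus strand).
Gm38431: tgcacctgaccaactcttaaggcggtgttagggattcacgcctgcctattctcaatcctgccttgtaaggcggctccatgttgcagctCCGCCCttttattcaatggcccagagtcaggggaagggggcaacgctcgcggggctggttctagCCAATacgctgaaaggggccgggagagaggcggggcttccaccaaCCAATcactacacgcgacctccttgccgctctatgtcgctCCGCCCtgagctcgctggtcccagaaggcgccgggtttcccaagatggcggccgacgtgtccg
Gbe1: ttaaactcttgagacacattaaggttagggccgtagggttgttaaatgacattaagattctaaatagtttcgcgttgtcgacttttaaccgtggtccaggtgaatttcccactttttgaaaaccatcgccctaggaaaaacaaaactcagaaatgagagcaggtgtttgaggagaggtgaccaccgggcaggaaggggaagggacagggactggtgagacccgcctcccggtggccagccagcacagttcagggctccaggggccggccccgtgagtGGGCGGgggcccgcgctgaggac
Taf8: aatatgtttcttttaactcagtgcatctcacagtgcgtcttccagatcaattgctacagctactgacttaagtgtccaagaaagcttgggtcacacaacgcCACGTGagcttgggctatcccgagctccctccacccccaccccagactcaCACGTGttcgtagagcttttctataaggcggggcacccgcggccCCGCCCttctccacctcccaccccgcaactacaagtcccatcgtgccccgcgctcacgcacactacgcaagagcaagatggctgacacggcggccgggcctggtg
The Gm38431 window held 2 GC boxes and 2 CCAAT boxes, 22 CpG and 61.3% GC. In the Gbe1 window there was 1 GC box, with 14 CpG and 54.3% GC. Taf8 had 2 E-boxes and 1 GC box, with 19 CpG and 58.0% GC.

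Depth was modest. Reads in the 22412 peaks came to 762633 to 1267934 per library, 1.67% to 2.63% of the library totals used in the deposited RPKM values, and those in first intron peaks near the start to 81817 to 135026. A median member held 31 to 52 reads per library, so that a change of a single peak was measured on few reads. Levels are given as CPM, the reads of a peak scaled to those in all deposited peaks of its library after TMM normalization, in the order control 1, 2 and 3 and Dyrk1b 1, 2 and 3. Variation between libraries of a group beyond counting noise, as edgeR's common coefficient, was 19.9%, part of which may be technical. An exonic peak at the predicted gene Gm10800 alone held 1.79% of the reads in control 1 but 2.94% to 5.30% elsewhere. No marker gene of 8 liver and blood cell types (37 genes) had a member. Over all peaks, 6 of 7 hepatocyte marker peaks had a negative log2 change (median -0.25, 0 called), summing to 278.3 to 433.2 CPM in controls and 311.9 to 334.9 CPM with Dyrk1b, and no peak was listed at Ttr, Cps1 and Serpina1a. Of 5 endothelial marker peaks 4 were positive (median 0.44, 0 called), with sums of 155.3 to 177.8 against 196.5 to 217.4 CPM and no peak at Cdh5, Kdr and Lyve1. The 3 macrophage peaks summed to 163.3 to 205.5 against 161.2 to 184.5 CPM, and no cholangiocyte marker had a peak. Stellate, T cell, B cell and neutrophil markers had 1 peak each, with log2 changes of 0.74, -0.60, 1.37 and 0.52 (0 called). The part of cell makeup in the results below was not tested, and in bulk liver fewer cells of a type and less accessibility per cell cannot be told apart.

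One region in this set passed the test. Accessibility fell in intron 1 of 16 of the predicted gene Gm38431 (chromosome 9, 21002248 to 21003421), 470 bases behind the start, at a peak that reached 116.5 bases upstream of it. The peak held 93.4, 114 and 108 CPM in controls (105 ± 10.5, SD, n = 3) and 64.8, 35.1 and 44.4 CPM with Dyrk1b (48.1 ± 15.2, SD, n = 3). The groups did not overlap, and Dyrk1b 1 lay nearest the controls. The log2 change was -1.15 ± 0.24 (SE), with an adjusted p of 0.0288 by edgeR's quasi-likelihood test with Benjamini-Hochberg adjustment over the 22051 peaks tested. DESeq2 also called it (adjusted p = 0.00807), and over all alternatives its adjusted p ran from 0.00807 to 0.386.

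That call rested on narrow margins. It was lost without control 1 (adjusted p = 0.0512), control 2 (0.114), control 3 (0.144), Dyrk1b 2 (0.158) or Dyrk1b 3 (0.167), each by edgeR, with log2 changes of -1.23 to -0.97. Without Dyrk1b 1 it remained called (-1.38, adjusted p = 0.0229), beside the peak at Tent5d. Scaling to library size alone (0.0522), limma-trend (0.0669), loess normalization (0.0689) and scaling to the RPKM library totals (0.386) also ended it. In the authors' deposited table the same peak had a log2 ratio of -1.02, a p of 0.000562 and an FDR of 0.295, and the lowest FDR of any member there was 0.291.

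The counts over the members stood near those over all peaks. Of 2121 members tested, 0 were called higher, where 0.00907% of all peaks were, and 1 was called lower, where 0.0227% were. The other 13 members were too low to be tested. At an unadjusted p under 0.05, 111 members (5.23%) were higher against 6.44% of all peaks, and 186 (8.77%) were lower against 7.72%. The 3 Dyrk1b libraries all lay above the 3 controls at 173 members (8.16%) against 9.53% of all peaks, and all below them at 237 (11.2%) against 9.97%. Shares on both sides were thus close to the background, and the difference between them was not tested. The authors' deposited table gave 138 members higher and 25 lower at its p under 0.05 and 0 at an FDR under 0.05. Its median log2 ratio was 0.11 over members and 0.17 over all peaks. The same counts over all peaks were not made, so this split cannot be read as particular to the members. Its log2 ratios are of mean RPKM values, and the headers do not name the test behind its p-values.

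The split into higher and lower depended on the scaling. Among members with an unadjusted p under 0.05, 62.6% were lower with TMM, 50.7% with library size alone and 57.0% after loess normalization. It was 13.1% (19 lower, 126 higher) with the RPKM library totals, by which the authors divided. Those totals moved the median log2 change of all peaks from 0.00 to 0.17. Over all peaks, TMM gave 1702 lower and 1419 higher at that p. For the other scalings these counts over all peaks were not made, so the shares cannot be read as particular to the members. The median of the members lay below that of all peaks under each scaling. It was -0.06 with TMM against 0.00 for all peaks, and 0.11 against 0.17 with the library totals. The gap ran from -0.07 to -0.04 over all settings tried, including those that left out 1 library.

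The 8 members higher with Dyrk1b that had the lowest p and groups that did not overlap are described next, none of them past the threshold. They stand with the lower ones in the plot of accessibility at named peaks by library.

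The peak at Tbxas1, which encodes thromboxane A synthase, the enzyme that makes thromboxane from prostaglandin H, lay 946 bases behind the start (chromosome 6, 38853140 to 38853428, intron 1 of 5). It held 12.8, 19.4 and 13.4 CPM in controls and 33.0, 52.7 and 34.4 CPM with Dyrk1b. Every Dyrk1b library was above every control, with Dyrk1b 2 the highest. The log2 change was 1.39 ± 0.37 (SE) and the adjusted p 0.112 by edgeR (0.110 to 0.321 over the alternatives).

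At Nr3c1, the gene of the glucocorticoid receptor, through which cortisol and corticosterone act on liver metabolism, 2 members were found (chromosome 18, intron 1 of 8). The peak over the start (39623368 to 39623869, middle at 109 bases) held 10.5, 39.9 and 16.1 CPM in controls and 51.5, 67.0 and 42.1 CPM with Dyrk1b. Control 2 came close to Dyrk1b 3, and the other controls were far lower. Its log2 change was 1.25 ± 0.34 (SE), with an adjusted p of 0.112 by edgeR, and without control 2 the change was 2.003. The second peak (39622807 to 39623182, at 733 bases) held 32.7, 27.8 and 29.5 CPM against 26.4, 69.2 and 47.4 CPM. There the groups overlapped through Dyrk1b 1, and the log2 change was 0.68 ± 0.31, or 0.34 without Dyrk1b 2.

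Ehbp1l1 encodes a protein of membrane trafficking. Its peak (chromosome 19, 5774548 to 5775124, 1509 bases behind the start) held 56.1, 58.1 and 56.2 CPM in controls and 83.3, 113 and 108 CPM with Dyrk1b. The controls were almost level and the Dyrk1b libraries clearly apart from them, with a log2 change of 0.84 ± 0.23 (SE) and an adjusted p of 0.112 by edgeR and 0.0728 by DESeq2. Slc26a6, an anion exchanger of epithelia, had a peak at 1475 bases (chromosome 9, 108732512 to 108732911) with 24.5, 19.4 and 17.4 CPM against 46.3, 38.4 and 45.9 CPM. The change there was 1.08 ± 0.33 on the log2 scale (adjusted p = 0.166, edgeR).

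Farp1 had a wide peak over its start (chromosome 14, 121272552 to 121273335, middle at 331 bases). It held 38.5, 48.4 and 57.6 CPM in controls and 84.6, 97.7 and 65.8 CPM with Dyrk1b, and Dyrk1b 3 lay nearest the controls (log2 change 0.77 ± 0.25, adjusted p = 0.180, edgeR). Tspan10 encodes a tetraspanin, a protein that spans the membrane and organises others in it. Its peak at 383 bases (chromosome 11, 120333637 to 120334070) held 19.9, 35.1 and 18.8 CPM against 38.3, 57.1 and 52.8 CPM. Control 2 lay just under Dyrk1b 1 (log2 change 1.01 ± 0.32, adjusted p = 0.171, edgeR).

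The remaining higher peaks belonged to genes without a symbol and rested on few reads. At ENSMUSG00000085376 (chromosome 5, 116149813 to 116150136, 2599 bases behind the start) controls held 3, 5 and 2 reads and Dyrk1b libraries 14, 21 and 26, or 3.50, 6.05 and 2.68 CPM against 18.5, 23.1 and 19.9 CPM. The log2 change was 2.28 ± 0.65 (adjusted p = 0.137, edgeR). At ENSMUSG00000098854 (chromosome 8, 87821370 to 87821695, 1597 bases) the values were 7.01, 15.7 and 17.4 against 31.7, 35.1 and 32.9 CPM, a log2 change of 1.32 ± 0.41 (adjusted p = 0.169, edgeR).

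**Figure D1:**
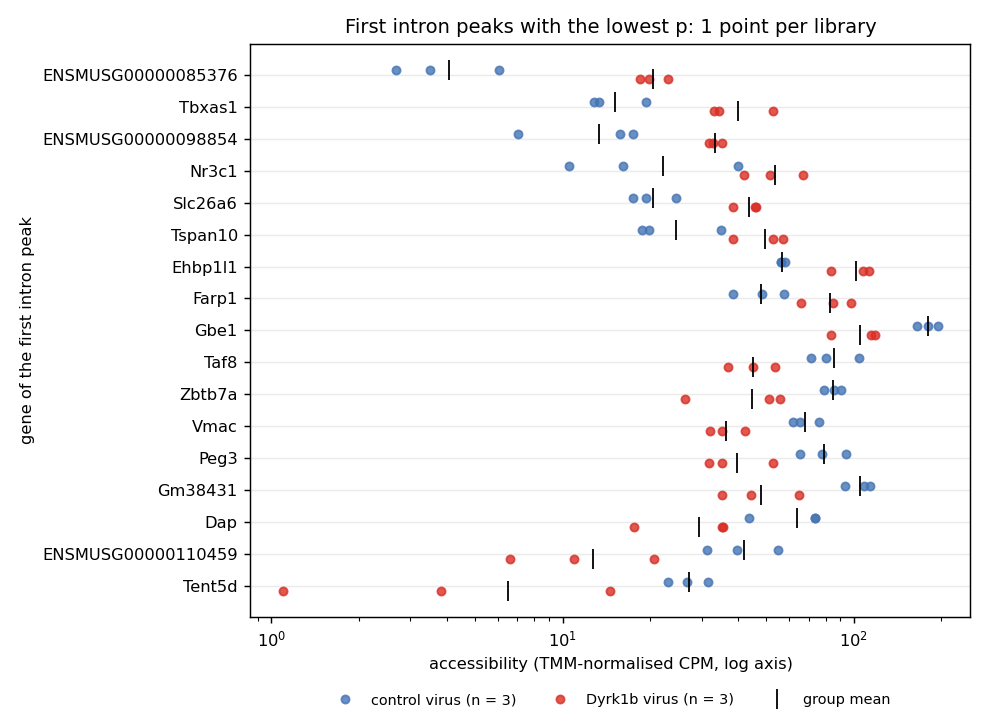
Accessibility (TMM-normalised CPM, log axis) in each library at the called peak of Gm38431 and at the 8 higher and 8 lower first intron peaks with the lowest p; blue points are the 3 controls, red points the 3 Dyrk1b libraries, and ticks the group means. The groups do not overlap at any of the 17 peaks, which the choice of peaks required for all but Gm38431, and Tent5d spreads widest, from 1.10 to 14.5 CPM with Dyrk1b.

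The 8 lower members chosen in the same way did not pass with all libraries and TMM either. Gbe1 encodes the branching enzyme that puts side chains on growing glycogen. Its peak spanned the start (chromosome 16, 70110671 to 70111712, intron 1 of 15, middle at 354 bases) and held 180, 164 and 194 CPM in controls and 83.3, 114 and 118 CPM with Dyrk1b. All Dyrk1b libraries lay well under the lowest control. The log2 change was -0.76 ± 0.21 (SE), with an adjusted p of 0.122 by edgeR and 0.0505 by DESeq2.

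Taf8 encodes a subunit of TFIID, the factor that recognises core promoters. Its peak over the start (chromosome 17, 47812609 to 47813401, middle at 207 bases) held 104, 71.4 and 80.3 CPM against 37.0, 45.0 and 53.5 CPM, a log2 change of -0.89 ± 0.24 (adjusted p = 0.122, edgeR). Zbtb7a encodes a zinc finger repressor. Its peak lay far from the start, at 2673 bases (chromosome 10, 80973390 to 80974064), and held 85.2, 90.7 and 79.0 CPM against 26.4, 56.0 and 51.2 CPM. Dyrk1b 1 was the lowest there (log2 change -0.90 ± 0.25, adjusted p = 0.126, edgeR).

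Peg3 is an imprinted gene for a zinc finger protein, read from the paternal copy. At its peak 1706 bases behind the start (chromosome 7, 6731328 to 6732100) controls held 65.4, 94.4 and 77.7 CPM and Dyrk1b libraries 31.7, 52.7 and 35.2 CPM, a log2 change of -0.99 ± 0.26 (adjusted p = 0.107, edgeR). Dap encodes a death-associated protein that restrains autophagy. Its peak at 2282 bases (chromosome 15, 31226529 to 31226955) held 73.6, 43.6 and 73.7 CPM against 35.7, 35.1 and 17.6 CPM. Control 2 stood close to Dyrk1b 1 and 2, and the log2 change was -1.15 ± 0.30 (adjusted p = 0.105, edgeR). The Vmac peak at 491 bases (chromosome 17, 57023868 to 57024510) held 65.4, 76.2 and 61.6 against 42.3, 35.1 and 32.1 CPM (log2 change -0.91 ± 0.26, adjusted p = 0.140, edgeR).

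Tent5d, an X-linked gene for a nucleotidyltransferase, had a peak at 634 bases (chromosome X, 106859151 to 106859462) with 27, 19 and 20 reads in controls and 11, 1 and 5 with Dyrk1b. In CPM these were 31.5, 23.0 and 26.8 against 14.5, 1.10 and 3.82. No deposited count is under 1, so the value of 1 may stand for none, as it may at the 12 members with such a count. The log2 change was -2.16 ± 0.58 (adjusted p = 0.112, edgeR), and without Dyrk1b 1 it was -3.28 and passed (adjusted p = 0.0360, edgeR). At ENSMUSG00000110459 (chromosome 8, 118403239 to 118403522, 568 bases) the values were 39.7, 31.5 and 54.9 against 6.61, 10.98 and 20.7 CPM. Its log2 change of -1.62 ± 0.39 had an adjusted p of 0.0967 by edgeR and passed after loess normalization (-1.82, adjusted p = 0.0437).

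The members differed little in level. Per kilobase of peak the median was 80.9 CPM over all libraries, with 51.6 and 123 CPM per kilobase at the 5% and 95% points. The 10% of members with the most reads nevertheless held 26.3% of the members' reads. A pair of peaks had by far the highest levels. Gm10801, a predicted gene in a stretch of chromosome 2 known for satellite repeats, where the placing of reads is uncertain (98492558 to 98493294, 344 bases behind the start), held 1613, 5733 and 5457 CPM in controls and 7228, 4670 and 3963 CPM with Dyrk1b. At ENSMUSG00000111059 (chromosome 9, 35216417 to 35216925) the values were 629, 1632 and 1549 against 2067, 1320 and 1022 CPM. Control 1 was by far the lowest library at both, as it was at the Gm10800 peak. Their log2 changes of 0.31 ± 0.41 and 0.21 ± 0.31 turned to -0.08 and -0.12 without control 1.

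The other strongest members lay at ordinary genes. Trpm8, the channel that senses cold and menthol, had a peak 1756 bases behind the start (chromosome 1, 88206849 to 88207429) with 262, 214 and 264 CPM in controls and 159, 167 and 154 CPM with Dyrk1b. Per kilobase this was 425 against 275 CPM, and the groups did not overlap (log2 change -0.63 ± 0.20, adjusted p = 0.185, edgeR, and -0.39 after loess normalization). Add3, which encodes an adducin of the membrane skeleton, held 120, 157 and 184 CPM against 122, 132 and 125 CPM at 2167 bases (chromosome 19, 53130698 to 53131384), and its groups overlapped. The log2 change of Add3 was -0.28 ± 0.21, and -0.43 without control 1. ENSMUSG00000074466 (chromosome 3, 89300927 to 89301214) had 73.6, 58.1 and 65.6 against 35.7, 38.4 and 43.6 CPM (log2 change -0.73 ± 0.26, adjusted p = 0.216, edgeR). Tapbp, whose product loads peptides on MHC class I (chromosome 17, 34134734 to 34135206), had 66.6, 73.8 and 107 against 83.3, 70.3 and 98.7 CPM, with no separation of the groups (log2 change 0.04 ± 0.23).

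As a class, first intron peaks near the start held a little less of the reads with Dyrk1b. They took 10.94%, 10.80% and 10.87% of the reads in peaks of the controls and 10.65%, 10.71% and 10.65% of those of the Dyrk1b libraries. Each Dyrk1b library lay under each control. The difference was -0.20 percentage points, with an exact two-sided permutation p of 0.1, the smallest that 3 against 3 allows (0.25 adjusted over the 5 comparisons of this kind). Without the Gm10800 peak in the total the groups overlapped (difference -0.15, exact permutation p = 0.2). As a share of the RPKM library totals the members held 0.204% to 0.243% in controls and 0.178% to 0.280% with Dyrk1b, with no separation.

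Set beside its neighbours along the gene, the class lay between upstream promoter peaks and deeper first intron peaks. The median log2 change was -0.11 over the 3080 tested promoter peaks within 1 kb upstream, -0.06 over the 2121 tested members and 0.06 over the 3412 tested first intron peaks beyond 3 kb. In these classes 61.8%, 55.3% and 45.5% of peaks had a negative change, against 49.6% of all peaks. With the RPKM library totals the medians were 0.06, 0.11 and 0.22, against 0.17 for all peaks. The direction thus turned for promoter peaks and members but not for the deeper class, and the order of the classes stayed. The promoter class took 16.9% to 17.4% of reads in controls and 15.5% to 16.9% with Dyrk1b (exact permutation p = 0.2), and the deeper first intron class 11.9% to 12.5% against 12.1% to 12.7% (exact permutation p = 0.4). Of the differences between classes within a library, the median of log2(CPM + 1) of members exceeded that of the deeper class by 0.38 to 0.50 in controls and by 0.33 to 0.36 with Dyrk1b. The groups did not overlap (difference -0.08, exact permutation p = 0.1, the smallest possible, 0.25 adjusted). Against the promoter class the groups overlapped (difference 0.02, exact permutation p = 0.9).

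Within the class the log2 changes varied little with distance up to 2 kb. The medians were -0.06 for 506 tested peaks at 0 to 300 bases, -0.05 for 512 at 300 to 600, -0.07 for 436 at 600 to 1000 and -0.07 for 442 at 1000 to 2000. Between 54.7% and 57.1% of peaks in these bins had a negative change. At 2000 to 3000 bases the median of 225 peaks was 0.00 and 48.9% were negative, and just outside the limit, at 3000 to 4000, the median of 159 peaks was 0.10 and 44.7% were negative. Peaks near the start were wider, with medians of 706 bases in the first bin, where 445 of 507 reached the start, and 406 bases at 2000 to 3000. Peaks that reached the start had a median of -0.08 (59.8% negative of 579) and those wholly downstream -0.04 (53.6% negative of 1542).

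**Figure D2:**
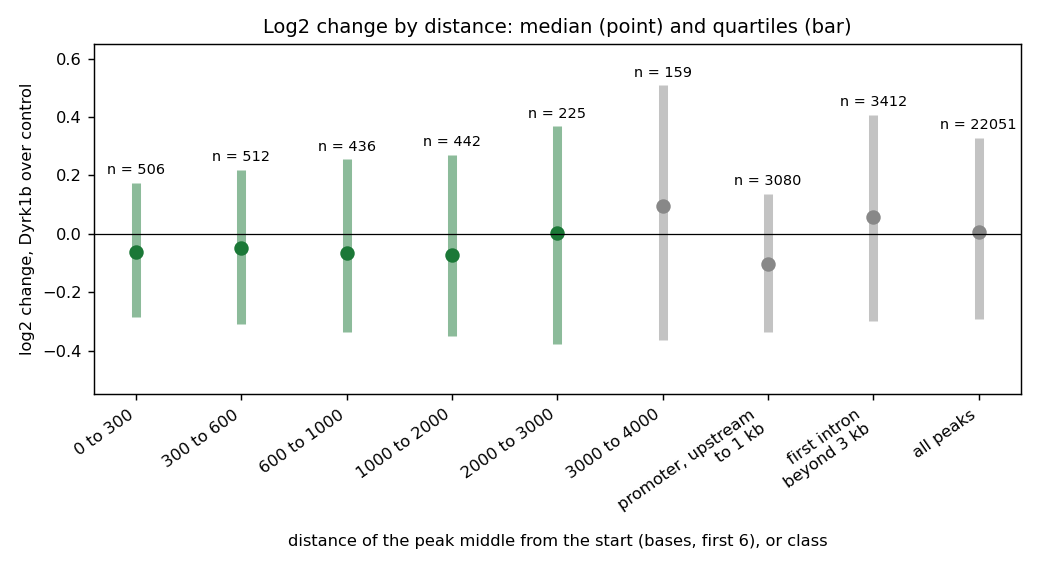
Log2 change (Dyrk1b over control) by distance of the peak middle from the start, as median (point) and quartiles (bar) over peaks; green bins are the first intron peaks within 3 kb, grey ones the first intron peaks at 3000 to 4000 bases and the comparison classes. Medians sit at -0.05 to -0.07 up to 2000 bases and at 0.00 and 0.10 beyond, while the quartile bars of all bins overlap.

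The direction of change varied more with level than with distance. All peaks were divided by CPM per kilobase over the 6 libraries into 3 bins of equal size, and members in the lowest, middle and highest bin had median log2 changes of 0.15, -0.04 and -0.18. In the same order 38.0%, 53.0% and 68.4% of the tested members had a negative change, against 34.1%, 49.2% and 64.7% of all peaks. The trend with level was thus shared by all peaks and by the other classes, with 34.6%, 42.8% and 62.7% negative among deeper first intron peaks and 44.7%, 59.5% and 69.7% among promoter peaks. Of the members in the highest bin 102 were lower and 14 higher at an unadjusted p under 0.05, and in the lowest bin 29 were lower and 61 higher. As shares these were 12.4% and 1.70% of the highest bin against 10.98% and 2.18% of all peaks in it, and 5.57% and 11.7% of the lowest bin against 5.57% and 12.3%. Loess normalization removes trends with the mean log2 CPM of a peak, not with CPM per kilobase. It brought the medians to -0.02 for members, -0.03 for promoter peaks, 0.02 for deeper first intron peaks and 0.02 for all peaks.

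**Figure D3:**
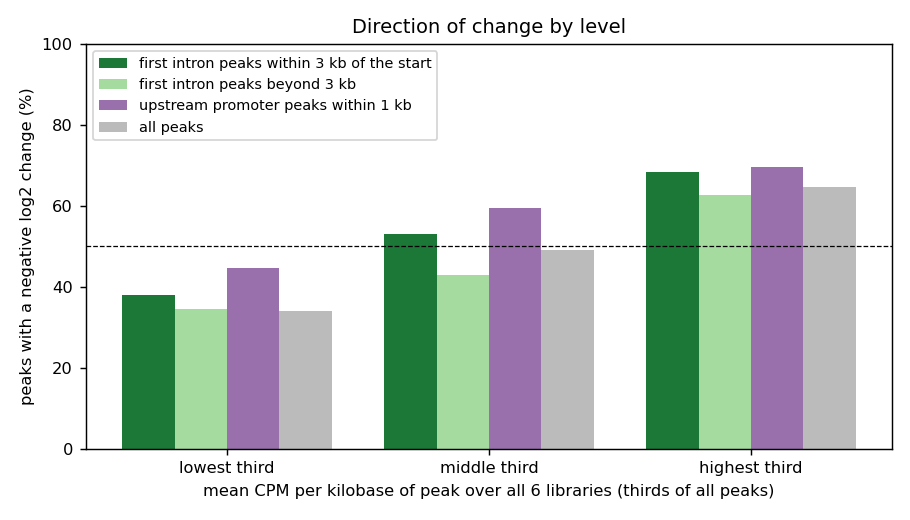
Percentage of tested peaks with a negative log2 change (Dyrk1b over control) in 3 equal bins of mean CPM per kilobase over all peaks, for each class; the dashed line marks 50%. First intron peaks near the start go from 38.0% in the lowest to 68.4% in the highest bin, next to 34.1% and 64.7% for all peaks.

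Whether the intron peak followed the promoter of its own gene was tested at the 279 members with a tested promoter peak. The intron peak was the stronger one, per kilobase, in 99 pairs, with median levels of 82.1 CPM per kilobase in the intron and 88.9 at the promoter, and a median of 985 bases lay between their middles. Across these pairs, which share libraries and are not replicates, the log2 changes of the intron and the promoter peak had a Pearson r of 0.01, and 139 of 279 had the same sign. The difference between them was called in 0 of 279 pairs (0.0%) by limma with trend, with 11 pairs at an unadjusted p under 0.05 in each direction and a lowest adjusted p of 0.367. The median difference was 0.04. Members at genes with a promoter peak held a median of 29 reads per library, and counting noise weakens r. The r of 0.01 thus cannot show whether the peaks of a pair change independently.

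The pairs named next were picked with their values in view, and none passed the threshold with all libraries. They cannot show that members part from their promoters. At Igsf5, an immunoglobulin family gene, the intron peak held 43.2, 58.1 and 49.5 CPM in controls and 18.5, 25.3 and 31.3 CPM with Dyrk1b, and the promoter peak 51.4, 61.7 and 57.6 against 76.7, 50.5 and 77.2 CPM. The intron was lower in every Dyrk1b library while the promoter groups overlapped (difference of the log2 changes -1.19 ± 0.40, adjusted p = 0.367, limma). Eif4b, a factor that helps to unwind mRNA for the ribosome, had 25.7, 64.1 and 53.6 against 33.0, 27.5 and 21.4 CPM in the intron and 39.7, 52.0 and 57.6 against 59.5, 68.1 and 84.1 CPM at the promoter (difference -1.18 ± 0.41, adjusted p = 0.367, limma). Zfp868, a zinc finger gene, had 33.9, 35.1 and 28.1 against 10.6, 14.3 and 18.4 CPM at 1 of its 2 intron peaks, 272 bases behind the start, and 30.4, 29.0 and 22.8 against 35.7, 37.3 and 26.8 CPM at the promoter (difference -1.34 ± 0.52, adjusted p = 0.547, limma). The other intron peak of Zfp868, at 1534 bases, had 25.7, 16.9 and 33.5 against 26.4, 28.6 and 18.4 CPM, with a log2 change of -0.07 and a difference of -0.28 from the same promoter.

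In the other direction the lowest p was at 4930579G24Rik, a gene known by its clone name. Its intron peak held 12.8, 13.3 and 17.4 CPM in controls and 27.8, 23.1 and 31.3 CPM with Dyrk1b, and its promoter peak 140, 95.6 and 85.7 against 74.0, 69.2 and 78.0 CPM (difference 1.32 ± 0.41, adjusted p = 0.367, limma). Both peaks separated the groups, in opposite directions. Phf8, which encodes a histone demethylase, had 5.84, 12.1 and 17.4 CPM against 18.5, 31.9 and 22.9 CPM in the intron and 53.7, 64.1 and 67.0 against 51.5, 39.5 and 41.3 CPM at the promoter. The promoter libraries with Dyrk1b all lay under the controls and the intron libraries above them (difference 1.46 ± 0.49, adjusted p = 0.367, limma). Farp1, named above for its higher intron peak, had 28.0, 30.2 and 18.8 against 19.8, 23.1 and 11.5 CPM at a promoter peak whose middle lay at -563 bases (difference 1.23 ± 0.44, adjusted p = 0.374, limma). Without control 1 there were 2 calls. Whamm, a promoter of actin branching at membranes, had 43.2, 25.4 and 26.8 against 47.6, 53.8 and 47.4 CPM in the intron and 14.01, 52.0 and 46.9 against 25.1, 31.9 and 13.8 CPM at the promoter. Cbfb, the partner of the RUNX factors, had 32.7, 4.84 and 5.36 against 48.9, 29.7 and 13.0 CPM in the intron and 39.7, 76.2 and 97.8 against 47.6, 83.5 and 70.3 CPM at the promoter. At both, control 1 stood apart from the other controls, and with it the adjusted p was 0.601.

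**Figure D4:**
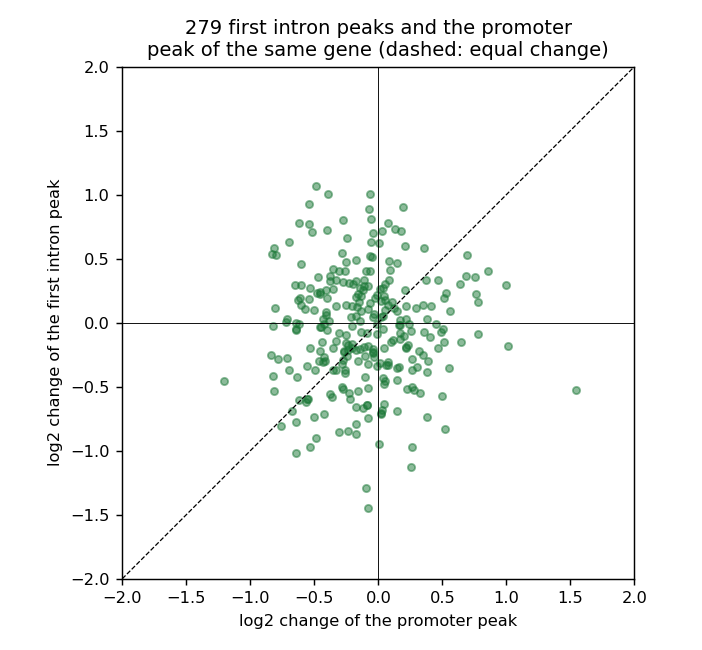
Log2 change (Dyrk1b over control) of 279 first intron peaks against that of the nearest promoter peak of the same gene, 1 point per pair; the dashed line marks equal change. The points form a round cloud (Pearson r of 0.01), with 139 of 279 in the quadrants of equal sign. Counting noise at few reads per peak weakens r.

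The 4 genes with 3 members had changes of both signs, none past the threshold, and differences between peaks of a gene were not tested. Pemt, which makes phosphatidylcholine from phosphatidylethanolamine in hepatocytes, had 3 peaks (chromosome 11). The peak over a start (59936527 to 59937691) held 120, 100.4 and 74.99 CPM in controls and 74.0, 61.5 and 108 CPM with Dyrk1b (log2 change -0.26 ± 0.23). That at 59935613 to 59935890 held 14.01, 20.6 and 24.1 against 37.0, 12.1 and 30.6 CPM (0.44 ± 0.41), and that at 59925690 to 59926233, at another start, 64.2, 59.3 and 67.0 against 43.6, 27.5 and 50.5 CPM (-0.63 ± 0.26, adjusted p = 0.281, edgeR). Only the last had groups that did not overlap. The 3 peaks of Odf2, a sperm tail gene also active at centrosomes, had log2 changes of 0.25, 0.07 and -0.28, and those of the interferon family gene Ifit1bl1 0.47, -0.69 and -0.45, all with overlapping groups. At ENSMUSG00000109841, whose peaks lie at more than 1 transcript, they were 0.70, -0.61 and 0.26, also with overlap.

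Genes of 15 lists on liver metabolism, signalling and gene regulation were read across the members. Of 545 list genes 85 had a member, with 89 peaks, and 0 of these were called. The log2 change was positive at 35 and negative at 54, with a median of -0.14 against 0.00 for all peaks tested and -0.06 for all members tested. At an unadjusted p under 0.05, 3 (3.37%) were higher and 11 (12.4%) lower, where 6.44% and 7.72% of all peaks were, a difference that was not tested. Negative changes made up 60.7% of the list peaks and 55.3% of all members.

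Among genes of glucose metabolism, 10 peaks at 9 of 53 genes had 5 positive and 5 negative changes (median -0.02). Besides Gbe1, the lowest p were at Klf15, a fasting-induced factor of gluconeogenesis, and Pgm1, which interconverts the glucose phosphates. Klf15 held 65.4, 48.4 and 93.7 CPM against 51.5, 51.6 and 47.4 CPM, where controls 1 and 3 lay above every Dyrk1b library and control 2 did not (log2 change -0.46 ± 0.25, and -0.19 without control 3). Pgm1 held 46.7, 64.1 and 53.6 against 31.7, 61.5 and 39.0 CPM with overlapping groups (-0.31 ± 0.27, and -0.61 without Dyrk1b 2). Foxo1, the insulin-restrained activator of gluconeogenesis, held 24.5, 33.9 and 33.5 against 23.8, 25.3 and 32.1 CPM. Slc37a4, the glucose 6-phosphate carrier of the endoplasmic reticulum, held 98.1, 100.4 and 52.2 against 67.4, 80.2 and 92.5 CPM. Neither gene separated the groups.

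The insulin and mTOR list had 7 peaks, 6 of them negative (median -0.23). Sesn3, a stress-induced inhibitor of mTORC1, held 95.8, 81.1 and 126 CPM in controls and 67.4, 54.9 and 67.3 CPM with Dyrk1b. The groups did not overlap (log2 change -0.67 ± 0.23, adjusted p = 0.196, edgeR). Akt2, the main insulin-activated kinase of liver, held 66.6, 50.8 and 57.6 against 34.4, 58.2 and 43.6 CPM (-0.36 ± 0.26, and -0.56 without Dyrk1b 2). Pik3cb, a catalytic subunit of phosphoinositide 3-kinase, was the positive one, with 26.9, 33.9 and 49.5 against 47.6, 53.8 and 49.7 CPM (0.46 ± 0.29, and 0.73 without control 3).

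Of 11 peaks at lipid and cholesterol genes 8 were negative (median -0.16). Fasn, the fatty acid synthase, held 64.2, 38.7 and 69.6 CPM in controls and 74.0, 80.2 and 74.9 CPM with Dyrk1b. The Dyrk1b libraries all lay above, and control 2 stood low (log2 change 0.41 ± 0.24, and 0.19 without control 2). Insig1, which retains the activators of sterol synthesis in the endoplasmic reticulum, held 37.4, 24.2 and 33.5 against 17.2, 23.1 and 21.4 CPM, with no overlap (-0.61 ± 0.37). Acadl, a dehydrogenase of fatty acid oxidation, held 96.9, 129 and 89.7 against 84.6, 90.0 and 83.4 CPM (-0.30 ± 0.22, and -0.12 without control 2).

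Nuclear receptors and their coregulators had 9 peaks at 8 of 39 genes, 6 positive and 3 negative (median 0.06), of which the 2 Nr3c1 peaks were described above. Nr1d1, the receptor REV-ERB alpha that represses clock genes, held 52.5, 78.6 and 97.8 CPM in controls and 31.7, 61.5 and 42.8 CPM with Dyrk1b, with control 1 under Dyrk1b 2. Its log2 change was -0.73 ± 0.26 (adjusted p = 0.217, edgeR). It was also 1 of the 5 clock peaks, of which 4 were negative (median -0.45). Cry2, a repressor of the clock, held 36.2, 36.3 and 32.1 against 25.1, 22.0 and 20.7 CPM without overlap (-0.64 ± 0.35). Arntl, the activator BMAL1, held 33.9, 42.3 and 17.4 against 39.7, 18.7 and 13.8 CPM, and the groups overlapped (-0.45 ± 0.38, and -0.96 without Dyrk1b 1). The labels give no hour of collection.

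The list of DYRK kinases, the DREAM complex and the cell cycle bears on the overexpressed kinase, since DYRK1A, a close relative, phosphorylates Lin52 and so promotes assembly of DREAM, a repressor of cell cycle genes. It had 7 peaks, 4 positive and 3 negative (median 0.11). Lin9, a core subunit of DREAM, held 28.0, 35.1 and 33.5 CPM in controls and 67.4, 65.9 and 40.5 CPM with Dyrk1b. All Dyrk1b libraries lay above the controls, Dyrk1b 3 least (log2 change 0.82 ± 0.29, adjusted p = 0.209, edgeR). Lin54, the subunit that binds DNA, held 38.5, 37.5 and 45.5 against 54.2, 62.6 and 58.1 CPM, also apart (0.53). E2f6, a repressor of the E2F family, held 18.7, 44.8 and 25.4 against 10.6, 9.88 and 16.8 CPM (-1.21 ± 0.44, and -0.78 without control 2). Dyrk2, a relative of the overexpressed kinase, held 87.6, 93.2 and 92.4 against 55.5, 60.4 and 74.2 CPM (-0.51 ± 0.23, adjusted p = 0.303, edgeR). The E2f6 and Dyrk2 peaks lay lower in every Dyrk1b library than in any control. The list thus held 2 peaks apart on each side, where 9.53% of all peaks were apart higher and 9.97% lower. Of the 7 peaks, 1 was higher and 2 lower at an unadjusted p under 0.05, against 6.44% and 7.72% of all peaks. The difference was not tested.

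Hippo and YAP genes had 3 members, all with positive changes (median 0.30) and overlapping groups. Amotl2, which holds YAP at junctions, held 53.7, 47.2 and 62.9 against 68.7, 84.6 and 50.5 CPM (log2 change 0.30 ± 0.25, and 0.50 without Dyrk1b 3). Lats1, the kinase that inactivates YAP, held 30.4, 32.7 and 33.5 against 50.2, 29.6 and 40.5 CPM (0.31 ± 0.31, and 0.48 without Dyrk1b 2). Taok1, an upstream kinase, held 37.4, 36.3 and 22.8 against 22.5, 43.9 and 34.4 CPM (0.07 ± 0.33), which turned negative without Dyrk1b 2 (-0.15) or control 3 (-0.12).

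Immediate early and stress-response genes had 6 peaks, 3 in each direction (median -0.35). Zfp36l1, which binds AU-rich mRNA and speeds its decay, held 31.5, 38.7 and 38.8 CPM in controls and 14.5, 16.5 and 15.3 CPM with Dyrk1b. The groups were tight and well apart (log2 change -1.23 ± 0.38, adjusted p = 0.166, edgeR). Maff, a small MAF factor, held 85.2, 59.3 and 30.8 against 19.8, 35.1 and 35.9 CPM with overlap through control 3 (-0.93 ± 0.30, and -0.55 without control 1). Klf10, a factor induced by TGF-beta, held 29.2, 50.8 and 65.6 against 44.9, 86.7 and 68.8 CPM (0.48 ± 0.27, and 0.76 without control 3).

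At 10 of 54 chromatin genes 11 peaks had 7 negative (63.6%) and 4 positive changes (median -0.19), next to 55.3% negative over all members. Sin3a, the scaffold of a histone deacetylase complex, held 148, 145 and 111 CPM against 52.9, 122 and 91.8 CPM (log2 change -0.59 ± 0.22, adjusted p = 0.240, edgeR). Dyrk1b 2 lay above control 3. Chd3, a NuRD remodeller, held 64.2, 71.4 and 71.0 against 48.9, 53.8 and 45.1 CPM at 2988 bases, just inside the distance limit, and Dpf2, a BAF subunit, 58.4, 71.4 and 45.5 against 37.0, 43.9 and 39.0 CPM. Both were without overlap (-0.49 ± 0.25 and -0.55 ± 0.27). The 8 translation peaks had 5 negative and 3 positive changes (median -0.07). Eif4a1, the helicase of translation initiation, held 60.7, 46.0 and 37.5 against 39.7, 24.2 and 27.5 CPM (-0.68 ± 0.30), and Rps15, of the small ribosomal subunit, 71.2, 54.4 and 68.3 against 42.3, 56.0 and 32.9 CPM (-0.58 ± 0.26), both overlapping.

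Smaller lists gave few members. Cytosolic chaperones had 4 peaks, 3 negative (median -0.33), with Hspa4 at 37.4, 54.4 and 60.3 against 47.6, 18.7 and 39.0 CPM (log2 change -0.53 ± 0.30, and -0.23 without Dyrk1b 2). Hepatocyte transcription factors had 4, of which 3 were negative (median -0.19), the lowest p being at Gata6 (112, 78.6 and 83.0 against 70.0, 71.4 and 80.3 CPM, -0.30 ± 0.22, and -0.12 without control 1). Inflammation genes had 3, all negative (median -0.26), among them Nfkbib, an inhibitor of NF-kB, with 37.4, 41.1 and 42.9 against 30.4, 28.6 and 31.3 CPM and no overlap (-0.42 ± 0.31). Splicing factors had 3, of which 2 were negative (median -0.09), and the list of endoplasmic reticulum stress had 0. Zinc finger genes of the C2H2 class in the deposited annotation had 66 members, of which 65 were tested, 38 (58.5%) were negative against 55.3% of all members. At an unadjusted p under 0.05, 2 (3.08%) of them were higher and 9 (13.8%) lower, where 6.44% and 7.72% of all peaks were. Over all members these shares were 5.23% and 8.77%, and the difference was not tested.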

How the data were processed

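The authors deposited 1 table of 22412 ATAC-seq peaks, and per the file headers it holds read counts and RPKM values per peak and library, the log2 ratio of group means, a p-value and an FDR per peak, and an annotation. Bowtie2, ChIPseeker and DiffBind, and the build mm10, are listed in the submitters' processing notes. The table's gene positions differ from that build, so coordinates are printed as deposited. The sources used here do not give the peak caller, duplicate handling or any shift of reads for the transposase.

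The deposited counts went into edgeR 4.0.16 under R 4.3.3 (TMM, filterByExpr, quasi-likelihood test, no covariate), with Benjamini-Hochberg adjustment over all 22051 peaks tested and calls at 0.05. Pairs of intron and promoter peak were tested on the difference of log2 CPM (prior count 2) with limma 3.58.1, and single values per library by an exact permutation test in scipy 1.17.1. DESeq2 1.42.0, library size, loess normalization, the RPKM library totals (the totals by which the authors divided), limma-trend, no filter, a replicate block, a limit of 1000 bases and leaving out each library were tried as alternatives. With 1000 bases 1 call remained, and the median was -0.06.

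Named are every called member, the 8 in each direction with the lowest p, no overlap and no predicted name, the 6 highest per kilobase, and up to 3 per gene list. The rule also takes pairs that passed, of which there were 0, so the pairs named, Lin54, Foxo1, Slc37a4 and the genes with 3 members fall outside it and were picked with their values in view. Members and lists were chosen with earlier results of these data known.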

Additional observations from a re-analysis of the deposited data

How the results depend on the processing

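With the RPKM library totals the count of called members was 0, their median log2 change 0.11 and the difference in their share of reads 0.0156 percentage points, against 1, -0.06 and -0.20. Library size alone gave 0 calls and a median of -0.0193, limma-trend 0 calls, and loess normalization 1 call at another peak and a median of -0.0182. With 1 library left out, calls ranged from 0 to 2, the median from -0.06 to -0.04, the share difference from -0.24 to -0.16, and calls of intron against promoter from 0 to 2, the 2 without control 1. DESeq2, no filter and a limit of 1000 bases left the calls at 1, and DESeq2 gave no adjusted p for 1393 of 2134 members. Replicate numbers were shared between groups, but same-numbered libraries did not deviate together (correlations of -0.01056, -0.01298 and 0.009371), and no library is known to be paired by its number. With the number as a replicate block there was 1 call, and 104 members were higher and 180 lower at an unadjusted p under 0.05. Counts over all peaks were not made with the block. The median was then -0.05 and 0 pairs were called. The share difference was -0.20 (exact permutation p = 0.25, the smallest that 3 blocks allow).

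Directions turned at some members that did not pass. With 1 library left out, log2 changes ran from -0.0829 (without control 1) to 0.58 at Gm10801, from -0.1173 (without control 1; -0.1114 without Dyrk1b 1) to 0.432 at ENSMUSG00000111059, from -0.0957 to 0.27 at Tapbp, from -0.48 to 0.29 at Nfix, from -0.15 to 0.27 at Taok1, from -0.33 to 0.21 at Il6ra and from -0.22 to 0.0623 at Luc7l2. The RPKM library totals turned Il6ra (0.0359) and Luc7l2 (0.1008), and loess normalization Il6ra (0.0488). The cause was not tested. Few reads per peak limit what single members can show.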
